A study of Mus musculus and Homo sapiens with 81 samples.

Results

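The tripartite motif (TRIM) genes were followed through RNA sequencing of 1 mouse and 4 human cancer cell lines in which the phosphatase gene Ptpn2 had been targeted and which were then given cytokines. Members were the genes whose symbol is Trim or TRIM followed by a number, in B16 with or without a letter after it, and whose mean was at least 1 CPM (a library's counts scaled to a common total) over the libraries of that line. That left 39 of the 65 Trim symbols among 23336 genes in B16, and 40, 42, 44 and 41 of the 64 TRIM symbols among 23227 genes in A375, A549, HT29 and MelJuSo. The human lines together held 49 members, of which 36 were members in all 4 lines, and 28 of the B16 members shared their name with a member of every human line.

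TRIM proteins are built from a RING domain, which usually acts as a ubiquitin ligase, 1 or more B-box domains and a coiled coil through which they pair. The family is defined by this shared front end, and the part behind the coiled coil differs between members and sets what each binds: a PRY-SPRY domain in most of the antiviral members, a bromodomain in the chromatin regulators, NHL repeats or a COS box in others. Several members are induced by interferon and act in the antiviral response, as direct restriction factors or as ligases that act on the RNA sensing and interferon signalling machinery. Members known for such a role are called interferon-linked below. B16 and A549 each held 15 of them, HT29 held 16, and the human melanoma lines 14 each.

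All cells carried Cas9 and a lentiviral guide, either a non-targeting one (Bro3 in B16, Bro4 in the human lines; control) or Ptpn2sg3 against Ptpn2 (labelled Ptpn2ko; called Ptpn2-null here). Ptpn2 encodes a tyrosine phosphatase that removes phosphate from JAK kinases and so dampens cytokine signalling. B16 mouse melanoma cells of both genotypes received vehicle (PBS with BSA), 1000 U/mL IFNb, 100 ng/mL IFNg, 10 ng/mL TNFa, IFNb+IFNg, IFNb+TNFa or IFNg+TNFa. The exposure lasted 48 h, and each of the 14 B16 groups had 3 libraries. The human lines, A375 and MelJuSo (melanoma), A549 (lung cancer) and HT29 (colon cancer), received vehicle or IFNg, in 16 groups of 3 libraries in the melanoma lines and 2 in the others, except 2 for A375 control vehicle. Nothing in the labels says whether cells were cloned after infection or whether replicates came from separate cultures, so the tests measure the spread between these libraries, which may be technical.

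The 81 libraries held between 3498860 and 9605776 counted reads. Ptpn2 stood at 44.7 to 61.9 CPM in the B16 control libraries and at 8.23 to 16.4 CPM in the Ptpn2-null ones. In A549, HT29 and MelJuSo PTPN2 was lower in every library labelled Ptpn2-null than in every control library of the same treatment. In A375 this held with IFNg (11.3 to 13.6 against 17.2 to 22.8 CPM), but the vehicle libraries went against their labels, with 24.1 to 25.1 CPM in those labelled Ptpn2-null and 11.9 and 12.1 CPM in those labelled control. Melanocyte markers summed to 6804.2 to 28476.6 CPM in B16 and 3459 to 4915.9 CPM in MelJuSo with all 7 genes present, but to 161.8 to 285.1 CPM in A375, where 3 of 7 genes reached 1 CPM and epithelial markers summed to more, 240.4 to 534.8 CPM. The epithelial list summed to 3208.5 CPM or more in A549 and HT29. HT29 also held 2044.5 to 2989.9 CPM of leukocyte list genes, with CD3E at 0. In B16 the leukocyte list reached 18.4 CPM at most, with Ptprc and Itgam at 0, and its part in the results was not tested. One HT29 control IFNg library (replicate 1) carries a lung cancer label. In B16, 5 libraries stood apart from their groups, 2 of control IFNb+IFNg (replicates 2 and 3) and 1 each of Ptpn2-null TNFa (replicate 1), IFNb+IFNg (replicate 3) and IFNg+TNFa (replicate 1).

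The TRIM members together took a small share of the reads. It was 0.225% to 0.229% in B16 control vehicle libraries and 0.226% to 0.233% with TNFa, which overlap, 0.299% to 0.302% with IFNg and 0.339% to 0.347% with IFNg+TNFa, where neither overlaps vehicle. HT29 rose from 0.39% to 0.392% with vehicle to 0.637% to 0.644% with IFNg, while MelJuSo control libraries lay at 0.279% to 0.286% with vehicle and 0.28% to 0.286% with IFNg. Trim12a, Trim12c, Trim30d and Trim34a in B16 became members only through groups where they are high. The same holds for TRIM22, TRIM36, TRIM40, TRIM6 and TRIM69 in HT29, so part of these rises is built in. A few genes can also carry such a share: in HT29 control replicate 1, TRIM31 stood at 203.6 CPM with vehicle and 1472 CPM with IFNg. Trim28, the corepressor that recruits silencing complexes to zinc finger proteins, led the B16 members with 602.3, 604.4 and 577.5 CPM in control vehicle. Per kilobase of its longest transcript this was 183.0 CPM/kb, ahead of Trim35 at 51.2, Trim44 at 40.9, Trim37 at 37.9 and Trim59 at 37.0 CPM/kb. The lowest B16 member was Trim36 with a mean of 1.117 CPM. Just inside the threshold in HT29 was TRIM36 (1.061 CPM), and just outside it were TRIM31 in A375 (0.936 CPM) and TRIM67 in MelJuSo (0.8309 CPM).

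The strongest responders in B16 lie in 1 stretch of chromosome 7 (GRCm38): Trim34a at chr7:104244457-104262234 on the plus strand, then on the minus strand Trim12a at chr7:104299894-104315466, Trim12c at chr7:104338754-104353362, Trim30a at chr7:104409025-104465193 and Trim30d at chr7:104470014-104507849. They belong to the rodent branch of the TRIM5, TRIM34 and TRIM22 group, which in primates includes the retroviral restriction factor TRIM5. Trim21, an antibody receptor in the cytosol, lies apart on the same chromosome at chr7:102557921-102565486 on the minus strand. Their promoter sequences are shown because these genes rose together. The stretches are from RefSeq's GRCm38.p6 annotation, 60 bases before the annotated start and the first 30 transcribed bases, on the gene's strand. Trim26 is shown from 180 to 121 bases before its start. Capitals mark the core of the interferon-stimulated response element, searched as GAAANNGAAA on both strands, so that it also appears as its reverse complement.
Trim30a (chr7:104465164-104465253, minus strand): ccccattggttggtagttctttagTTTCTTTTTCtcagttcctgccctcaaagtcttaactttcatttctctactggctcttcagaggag
Trim30d (chr7:104507820-104507909, minus strand): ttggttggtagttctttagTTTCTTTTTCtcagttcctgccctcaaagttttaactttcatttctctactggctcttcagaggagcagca
Trim12a (chr7:104315466-104315555, minus strand): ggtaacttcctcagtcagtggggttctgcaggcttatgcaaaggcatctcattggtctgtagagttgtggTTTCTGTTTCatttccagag
Trim12c (chr7:104353320-104353409, minus strand): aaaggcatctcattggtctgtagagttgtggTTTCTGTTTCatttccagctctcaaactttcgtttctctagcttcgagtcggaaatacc
Trim34a (chr7:104244397-104244486, plus strand): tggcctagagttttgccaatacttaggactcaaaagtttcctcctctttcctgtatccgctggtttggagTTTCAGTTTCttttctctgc
Trim21 (chr7:102565453-102565542, minus strand): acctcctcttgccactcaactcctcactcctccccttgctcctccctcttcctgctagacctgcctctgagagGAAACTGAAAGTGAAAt
Trim26 (chr17:36836966-36837025, plus strand): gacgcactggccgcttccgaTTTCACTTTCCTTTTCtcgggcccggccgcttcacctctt

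Trim30a and Trim30d share a run of 49 identical bases here, and so do Trim12a and Trim12c. Their shared element falls before the RefSeq start of Trim12c and after that of Trim12a. The GENCODE start of Trim12a lies 29 bases further on, past the element, so this contrast depends on the annotation. The longest run shared by Trim34a and Trim12a was 7 bases. In the whole windows, from 250 bases before to 50 after a start, the element was found in 8 of the 30 B16 members that have a window (26.7%), against 1079 of 27025 genes (3.99%). It was found in 7 of the 9 members that were at least 2-fold higher with IFNb or IFNg, the 7 printed above. Trim25 and Trim56, the other 2, held no match in these windows, which says only that these letters are not there. Of the 21 remaining members with a window, 1 (Trim2) held it. Trim12a, Trim12c, Trim30d and Trim34a, all among the 8 and the 7, became members only through the groups where they are high. The shares of members and of induced members with the element are therefore partly built in. The gamma-activated site, searched as TTCNNNGAA on both strands, was in 0 of the 9 and in 2 of the 21, against 9.55% of all genes. A match is a description of the sequence and was not tested as a binding site.

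**Figure D1:**
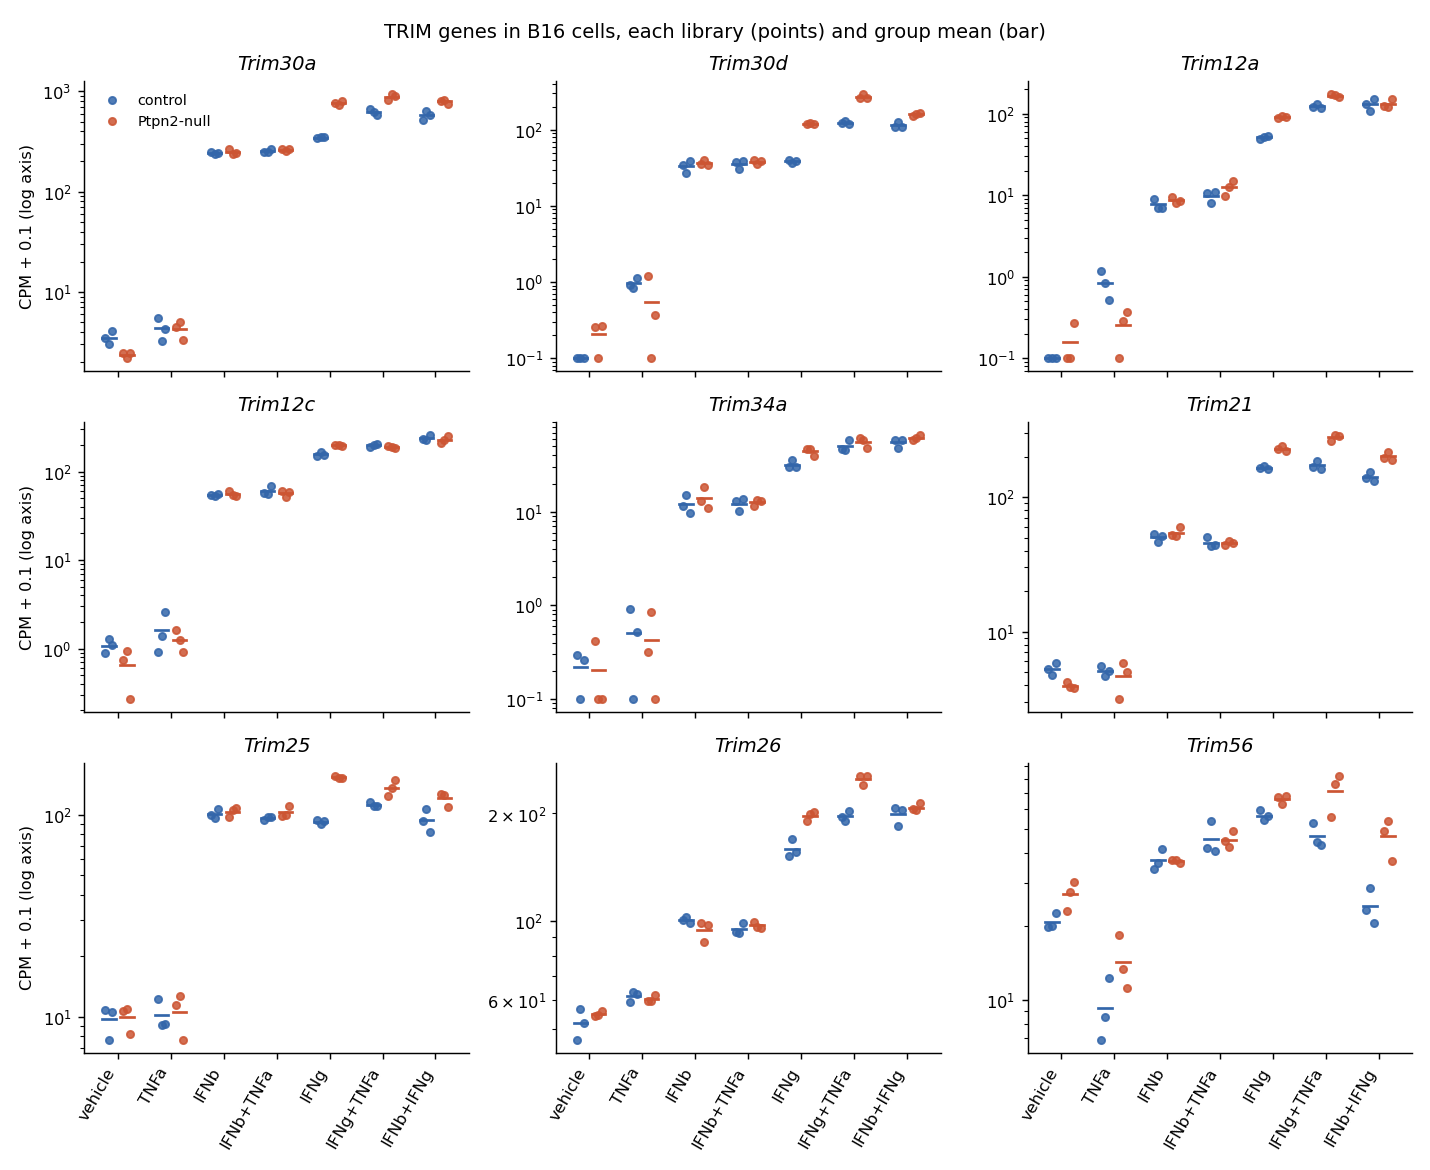
Scaled CPM plus 0.1 on a log axis for 9 interferon-linked TRIM genes in the 14 B16 groups, each point a library and each bar a group mean (control blue, Ptpn2-null red). The control IFNg libraries of all 9 genes lie above their control vehicle libraries, and Trim30a reaches 738.6 to 798.1 CPM in Ptpn2-null cells with IFNg.

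In control B16 cells the chromosome 7 group rose with either interferon. Trim30a stood at 3.36, 2.92 and 3.95 CPM with vehicle, at 246.9, 235.6 and 242.3 CPM with IFNb and at 340.5, 347.2 and 350.8 CPM with IFNg. The 3 groups did not overlap. By edgeR's quasi-likelihood test the log2 rise was 6.13 (SE 0.11, adjusted p = 2.5e-43) with IFNb and 6.64 (SE 0.11, adjusted p = 1.6e-46) with IFNg, and IFNg stood 0.52 above IFNb (SE 0.06, adjusted p = 3.2e-10). Here and below the SE is derived from the test's F value and is too small where a group holds few counts. The control vehicle libraries held 17, 15 and 24 counts of Trim30a. Trim30d was at 0 in all 3 control vehicle libraries and at 34.5, 26.8 and 38.7 CPM with IFNb and 40.4, 36.9 and 38.8 CPM with IFNg. Against a floor of 3 counts over the vehicle group it was at least 181.7-fold higher with IFNb and at least 210.0-fold higher with IFNg. The IFNb and IFNg libraries of Trim30d overlapped and their difference was not called.

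The Trim12 genes leaned further towards IFNg. Trim12a was at 0 with vehicle, at 8.96, 6.95 and 6.94 CPM with IFNb and at 48.9, 52.0 and 52.6 CPM with IFNg, which is at least 41.67-fold and at least 277.1-fold higher. The difference between the interferons was 2.73 on the log2 scale (SE 0.15, edgeR adjusted p = 2.2e-21), the largest among the called members. Trim12c rose from 0.79, 1.17 and 0.986 CPM to 53.6, 53.0 and 56.1 CPM with IFNb and to 148.5, 164.8 and 155.5 CPM with IFNg. The IFNg libraries lay above all IFNb ones, with a log2 difference of 1.53 (SE 0.08, edgeR adjusted p = 7.4e-24). Trim34a had 0.197, 0 and 0.164 CPM with vehicle, and its ratio of summed CPM was 96.5 with IFNb (95% exact counting interval 26.4 to 803) and 260.6 with IFNg (71.8 to 2160). The pairs Trim30a and Trim30d, and Trim12a and Trim12c, are close copies, so how reads that fit both were counted could shift values between them.

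Among the members outside that stretch, Trim21 and Trim25 (chr11:88999376-89020293, plus strand) moved most. Trim21 was at 5.13, 4.68 and 5.75 CPM with vehicle, 53.1, 46.5 and 51.4 CPM with IFNb and 163.8, 170.4 and 163.3 CPM with IFNg. It rose by 3.27 (SE 0.13, edgeR adjusted p = 1.3e-27) and 4.98 (SE 0.11, edgeR adjusted p = 3.3e-40) on the log2 scale, and the groups did not overlap. Trim25, the ligase that modifies the RNA sensor RIG-I, rose from 10.7, 7.6 and 10.5 CPM to 99.7, 96.0 and 106.2 CPM with IFNb and 93.5, 89.7 and 93.2 CPM with IFNg. Its rises of 3.38 (SE 0.11) and 3.25 (SE 0.12) were both called and the difference between the interferons was not. Trim26 (chr17:36837134-36859398, plus strand) and Trim56 (chr5:137105644-137116209, minus strand), both regulators of antiviral signalling, rose less, by 0.96 and 0.84 with IFNb and by 1.62 and 1.44 with IFNg. Trim8, a regulator of cytokine signalling, rose by 0.36 and 0.32.

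All cytokine arms were set against the same 3 control vehicle libraries, so their counts are not independent. Over all members, IFNb raised 17 and lowered 1 of 39 (46.2% called, against 30.5% of the 11726 genes tested, 17% higher and 13.5% lower), with a median log2 change of 0.25 against 0.02 over all genes. IFNg raised 13 and lowered 5 (46.2%, against 37.9%, 20% higher and 17.9% lower), with medians of 0.01 and 0.00. Trim12a, Trim12c, Trim30d and Trim34a, under 1 CPM with vehicle, became members only through the groups where they are high, so their rise is built into these counts. Among the other 35 members IFNb raised 13 and lowered 1 (40% called) and IFNg raised 9 and lowered 5 (40%). The 15 interferon-linked members accounted for 11 of the rises in each case and for none of the falls, and their median log2 change with IFNg was 1.62. Trim12a, Trim12c, Trim30d and Trim34a are among those 11 and in that median. The list was also chosen for such roles with earlier results of these data known, so its rise describes the list and tests nothing. The 4 interferon-linked members that were not called with IFNg were Trim14, Trim23, Trim27 and Trim65. Compared directly, IFNg was above IFNb for 7 members and below it for 13 (51.3% called, against 35.7% of all genes, 17.4% higher and 18.2% lower). The 7 higher ones were all interferon-linked: Trim12a, Trim21, Trim12c, Trim34a, Trim26, Trim56 and Trim30a. For the size of the response, Irf1, an interferon-induced transcription factor, rose by 1.05 with IFNb and 6.0 with IFNg (log2).

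TNFa alone gave a different picture. It raised 11 and lowered 7 of the 39 members (46.2% called, against 47.7% of all genes, 24.7% higher and 23% lower), and 5 interferon-linked members rose while 3 fell. Among the 35 members at 1 CPM or more with vehicle it raised 9 and lowered 7 (45.7%). Trim56 fell from 19.7, 19.9 and 22.5 CPM to 6.78, 8.46 and 12.2 CPM, by 1.16 on the log2 scale (SE 0.21, edgeR adjusted p = 2.5e-05), with no overlap. Trim23, a ligase with an ARF domain, fell by 0.80 (edgeR adjusted p = 0.00079). Trim46, which organises microtubules, rose by 0.94, Trim39 by 0.81, Trim11 by 0.76 and Trim3, an NHL-repeat member of neurons, by 0.64. Of the interferon-linked members Trim27 rose by 0.37 and Trim65 fell by 0.52. Trim30a, Trim12c, Trim21 and Trim25 were not called, with Trim30a at 5.43, 3.13 and 4.15 CPM. Trim30d (0.814, 0.736 and 1.04 CPM) and Trim12a (1.09, 0.736 and 0.415 CPM) left 0 in all TNFa libraries and were at least 4.67-fold and at least 3.892-fold higher than vehicle.

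**Figure D2:**
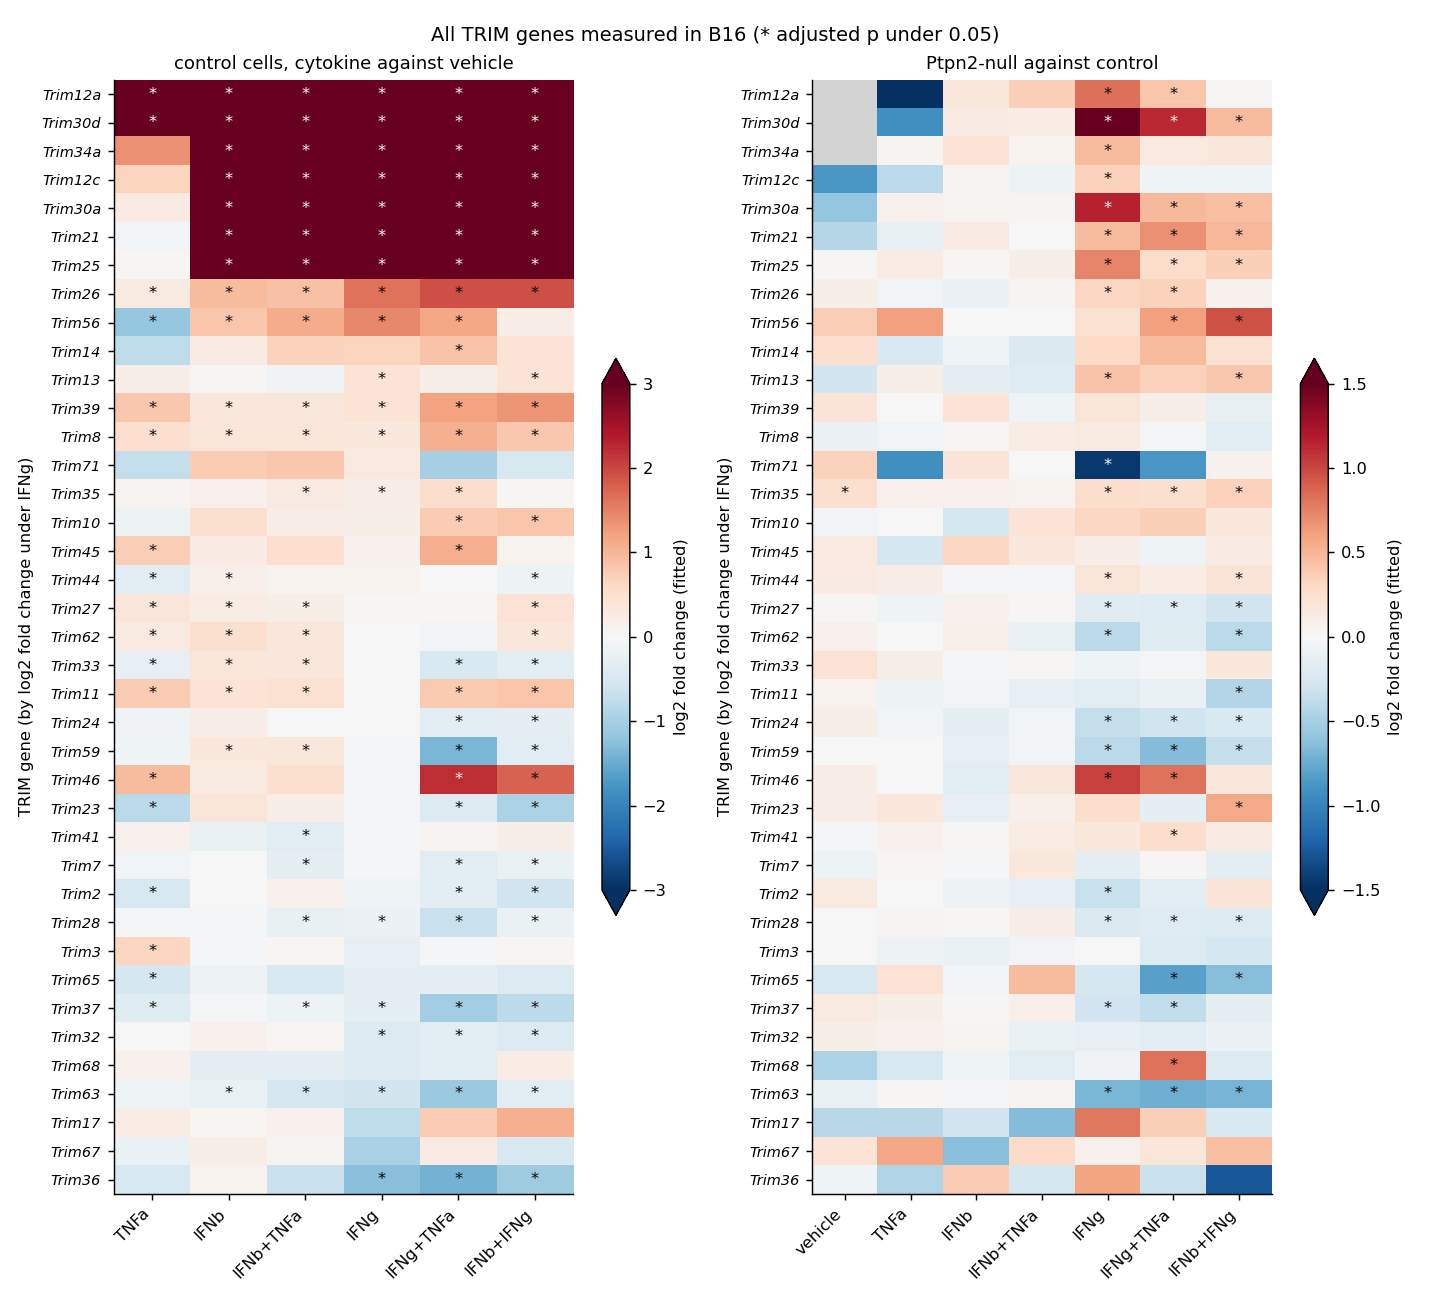
Fitted log2 fold changes of the 39 B16 members, ordered by the IFNg change in control cells: cytokine against vehicle in control cells on the left and Ptpn2-null against control on the right, with stars for adjusted p under 0.05, colours capped at the ends of each scale and grey for genes at or under the floor of 3 counts in both groups. Stars fill the top rows of every interferon column on the left, and on the right they lie in the 3 columns with IFNg, apart from Trim35 with vehicle.

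Adding TNFa to IFNg raised the chromosome 7 group further. Trim30d was at 122.7, 128.1 and 119.2 CPM, above all IFNg libraries by 1.67 on the log2 scale (SE 0.09, edgeR adjusted p = 3.6e-22). Trim12a reached 120.6, 133.0 and 118.6 CPM, higher than IFNg alone by 1.28 (SE 0.10, edgeR adjusted p = 2e-16). Trim30a reached 671.6, 627.6 and 582.9 CPM, higher by 0.86 (SE 0.06, edgeR adjusted p = 1.1e-18). In each case the groups did not overlap, although TNFa alone brought these genes to 5.43 CPM at most. Of the 39 members 15 were higher and 8 lower with the pair than with IFNg alone (59.0% called, against 61.5% of all genes, 31.3% higher and 30.2% lower), and 9 interferon-linked members were among those higher and none among those lower. Against vehicle the pair raised 17 and lowered 11 members (71.8%, against 69.3%, 36% higher and 33.3% lower), and Trim14 and Trim8 rose by 0.86 and 1.07. Among the 35 members at 1 CPM or more with vehicle it raised 13 and lowered 11 (68.6%).

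Trim46 showed the largest rise from IFNg to IFNg+TNFa among the called members. It was at 3.95, 3.51 and 3.12 CPM with vehicle and 2.98, 4.21 and 2.89 CPM with IFNg, and at 14, 18.2 and 17 CPM with IFNg+TNFa. Its log2 difference from IFNg alone was 2.27 (SE 0.21, edgeR adjusted p = 2.1e-13), and from TNFa alone (7.6, 6.99 and 5.81 CPM) its libraries were also separate, a difference that was not tested. Trim46 (chr3:89234177-89246309, minus strand) overlaps Krtcap2 on the other strand, as Trim14 does Nans and Trim13 does Dleu2, and Trim65 overlaps Trim47 on its own strand. Whether counting used the strand is unstated, so their reads may be mixed. Adding TNFa to IFNb gave few calls. With edgeR 0 members were higher and 3 lower (Trim28, Trim7 and Trim63; 7.69% called, against 8.85% of all genes, 5.39% higher and 3.46% lower), and without control IFNb replicate 2 there was 1. Trim30a stood at 248.0, 248.7 and 266.8 CPM with IFNb+TNFa.

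IFNb and IFNg together against IFNg alone raised 18 and lowered 10 members (71.8% called, against 57.9% of all genes, 29.8% higher and 28.1% lower), with 8 interferon-linked members among those higher and 4 among those lower. Trim30d reached 109.8, 125.0 and 109.7 CPM and was higher than with IFNg by 1.57 (SE 0.09, edgeR adjusted p = 9.3e-20), and Trim12a by 1.35 (SE 0.10, edgeR adjusted p = 3e-16). Trim56 went the other way, from 59.5, 54.1 and 56.1 CPM to 23.2, 28.7 and 20.5 CPM, and fell by 1.23 on the log2 scale (SE 0.15, edgeR adjusted p = 7.2e-09). Trim23 fell by 0.91 in the same comparison. Among the 35 members at 1 CPM or more with vehicle, the interferon pair raised 12 and lowered 12 against vehicle (68.6%), and IFNb+TNFa 13 and 5 (51.4%). Over all members the interferon pair raised 16 and lowered 12 against vehicle (71.8%, against 65.4%, 34.3% higher and 31.1% lower). IFNb+TNFa raised 17 and lowered 5 of all members (56.4%, against 38.5%, 21.6% higher and 16.9% lower), 12 of the 17 being interferon-linked. A fit without the 5 libraries that stood apart left 1 control IFNb+IFNg library, whose spread is assumed to be that of the other groups. Only fold changes are given from it. There Trim30d differed from IFNg alone by 1.46, Trim12a by 1.32 and Trim56 by -1.33. Deviations of control IFNb+IFNg replicates 1, 2 and 3 from their group mean went with transcript length (Spearman correlation -0.238, 0.455 and -0.38). Other groups showed this too. The values were 0.236, 0.364 and -0.448 for Ptpn2-null IFNb+IFNg and -0.446, 0.203 and 0.371 for Ptpn2-null IFNg+TNFa. They were 0.323, 0.022 and -0.359 for control IFNg+TNFa, 0.396, -0.205 and -0.274 for Ptpn2-null TNFa, and 0.037, -0.218 and 0.165 for control TNFa. The longest Trim56 transcript is among the long ones, at 9279 bases, so its values in all these arms carry this limit. Trim33 and Trim44, both called lower than vehicle, changed sign to 0.07 each when the trend with transcript length was removed.

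**Figure D3:**
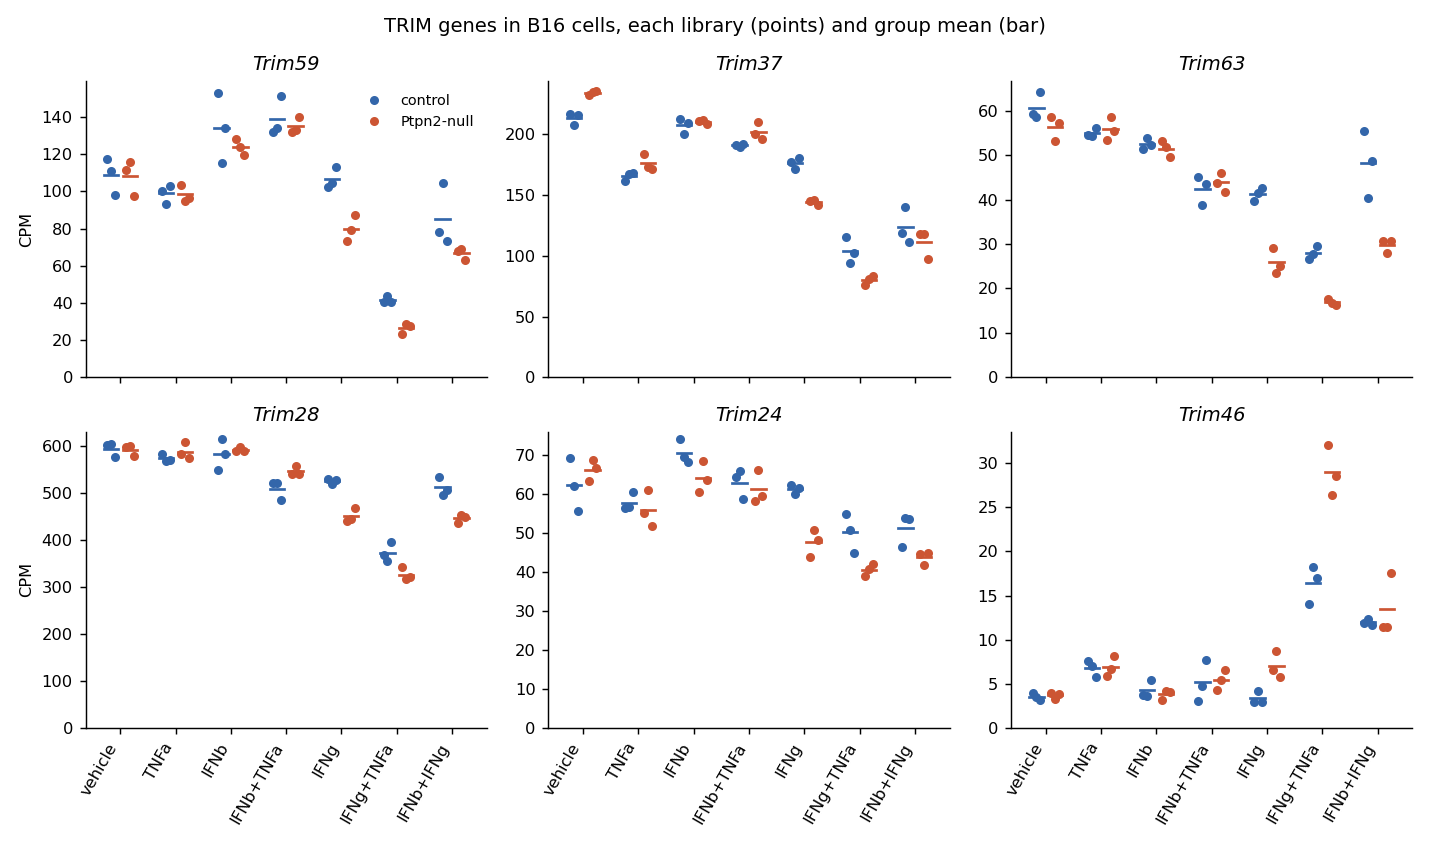
Scaled CPM on a linear axis for Trim59, Trim37, Trim63, Trim28, Trim24 and Trim46 in the 14 B16 groups, each point a library and each bar a group mean. For all of them but Trim46, the control IFNg+TNFa libraries lie below the control vehicle libraries and the Ptpn2-null IFNg libraries below the control IFNg libraries; for Trim46 the IFNg+TNFa libraries lie above.

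Of the members that fell in control cells, 0 of 5 with IFNg and 1 of 11 with IFNg+TNFa were interferon-linked, as 15 of all 39 members are. With TNFa alone it was 3 of 7. Trim59 (chr3:69035288-69044755, minus strand), a membrane-anchored ligase, was at 117.5, 111.1 and 98.0 CPM with vehicle, 102.6, 104.3 and 113.2 CPM with IFNg and 40.7, 43.7 and 40.7 CPM with IFNg+TNFa. It fell by 1.38 on the log2 scale with the pair (SE 0.10, edgeR adjusted p = 1.1e-16) and was not called with IFNg alone. Trim37 (chr11:87127077-87220683, plus strand), a ligase that limits centrosome assembly, went from 217.1, 208.1 and 215.7 CPM to 177.0, 171.6 and 180.4 CPM with IFNg and to 115.4, 93.7 and 102.2 CPM with the pair. The falls were 0.28 (edgeR adjusted p = 0.00019) and 1.05 (edgeR adjusted p = 1.1e-20), and none of these 3 groups overlapped. Trim63 (chr4:134315120-134329629, plus strand), known as MuRF1 in muscle, went from 59.2, 58.5 and 64.3 CPM to 39.6, 41.6 and 42.7 CPM with IFNg and 26.7, 27.7 and 29.5 CPM with the pair, falling by 0.56 and 1.12. Trim32, an NHL-repeat ligase, fell by 0.42 with IFNg.

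All 3 bromodomain members were called lower with IFNg+TNFa, where 33.3% of all genes were, 1 of them (Trim33) not under every setting. Trim28 went from 602.3, 604.4 and 577.5 CPM to 529.7, 520.6 and 527.3 CPM with IFNg and 369.3, 355.0 and 395.3 CPM with the pair, falling by 0.18 (SE 0.04, edgeR adjusted p = 0.001) and 0.67 (SE 0.05, edgeR adjusted p = 4.6e-19). Trim24 fell by 0.31 and Trim33 by 0.45 with the pair. Trim33 was no longer called once the length trend was removed, at -0.10 (edgeR adjusted p = 0.19). In bulk RNA, fewer cells of a kind and less RNA per cell cannot be told apart.

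Between B16 genotypes, TRIM members were called mainly in the arms with IFNg. With vehicle 1 member was called (Trim35, higher by 0.24; 2.56% of members, against 3.07% of all genes, 1.91% higher and 1.16% lower), and it was lost when any of 4 single libraries was left out, control vehicle replicates 1 and 2 and Ptpn2-null vehicle replicates 2 and 3, leaving 0. With IFNb, TNFa and IFNb+TNFa 0 members were called by edgeR or DESeq2, where 0.554%, 0.938% and 0.597% of all genes were. At an unadjusted p under 0.05 there were 0, 2 and 3 members. With IFNg 12 members were higher and 9 lower (53.8%, against 34.9%, 17.7% higher and 17.2% lower), with IFNg+TNFa 11 and 7 (46.2%, against 41%, 20.3% higher and 20.8% lower) and with IFNb+IFNg 9 and 8 (43.6%, against 38.4%, 19.2% each way). The last count was 6 and 3 with only the compared groups in the fit. Of the 15 interferon-linked members 9, 8 and 7 were higher and 1, 2 and 2 lower in these 3 arms. Without the libraries that stood apart the counts were 14 and 9 with IFNg and 12 and 7 with IFNg+TNFa. That fit left 1 control IFNb+IFNg library, so no count is given for that arm. The shares of all genes called under these alternatives are not given, so whether those shares moved too is not shown.

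Trim30a and Trim30d showed the largest rises with IFNg. Trim30a was at 771.8, 738.6 and 798.1 CPM in Ptpn2-null cells against 340.5, 347.2 and 350.8 CPM in control cells, higher by 1.15 on the log2 scale (SE 0.06, edgeR adjusted p = 2.7e-23). With vehicle it was at 2.38, 2.08 and 2.36 CPM in Ptpn2-null cells and was not called, and the change in its IFNg response was 1.74 (SE 0.28, edgeR adjusted p = 3.5e-06). With IFNb it was at 263.7, 237.5 and 243.4 CPM, overlapping the control libraries. Trim30d was at 118.6, 123.0 and 119.0 CPM against 40.4, 36.9 and 38.8 CPM, higher by 1.63 (SE 0.09, edgeR adjusted p = 4.7e-21). This range overlapped that of control cells with IFNg+TNFa, a difference that was not tested. With IFNg+TNFa Ptpn2-null cells reached 261.8, 292.1 and 257.4 CPM, higher than control by 1.13 (SE 0.07, edgeR adjusted p = 2.3e-18).

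The other interferon-linked members rose by less with IFNg. Trim12a was at 88.8, 93.5 and 91.0 CPM, higher by 0.83 (SE 0.10), and Trim25 at 155.6, 150.9 and 151.0 CPM, higher by 0.73 (SE 0.08). Trim21 and Trim34a were each higher by 0.47, Trim12c by 0.34, Trim26 by 0.31 and Trim35 by 0.26. All had an edgeR adjusted p of 0.0038 or less, and Trim56, called with IFNg+TNFa (0.62) and IFNb+IFNg (0.95), was not called with IFNg. Without the libraries that stood apart Trim56 was at 0.79 and 1.19 in those 2 arms. Libraries of both arms deviated with transcript length, as given above, and the longest Trim56 transcript is long. Trim46, outside that list, was higher with IFNg too, from 2.98, 4.21 and 2.89 CPM to 6.56, 8.68 and 5.77 CPM (log2 1.03, SE 0.26, edgeR adjusted p = 0.001). With IFNg+TNFa it reached 32.1, 26.4 and 28.5 CPM, higher by 0.82.

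Trim63, Trim59, Trim37, Trim28 and Trim24, which fell with IFNg+TNFa in control cells, were lower in Ptpn2-null than in control cells with IFNg. Trim63 was at 29.1, 23.4 and 25.1 CPM with IFNg, a fold change of -0.68 on the log2 scale (SE 0.09, edgeR adjusted p = 4.6e-08), and at 17.6, 16.8 and 16.2 CPM with IFNg+TNFa, a change of -0.73. Trim59 was at 73.1, 79.2 and 87.2 CPM with IFNg, a change of -0.41, and Trim37 at 144.8, 146.0 and 141.5 CPM, a change of -0.29. Trim28 changed by -0.22 and Trim24 by -0.36, and the groups of all 5 genes were separate. The lowest called value, -1.45 for Trim71 (edgeR adjusted p = 0.037), was lost without any 1 of 5 libraries, among them Ptpn2-null IFNg replicate 3 (-0.92, edgeR adjusted p = 0.25). With IFNb+IFNg Trim63 changed by -0.70, while Trim59 was lost without control IFNb+IFNg replicate 2 (-0.17, edgeR adjusted p = 0.15).

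The IFNg response itself differed between genotypes for 11 of the 39 members (28.2%, against 21.5% of all genes, 9.07% larger and 12.4% smaller), 4 with a larger and 7 with a smaller value in Ptpn2-null cells, and for 7 without Ptpn2-null vehicle replicate 2. The 4 were Trim30a, Trim21 (0.90), Trim25 (0.70) and Trim13 (0.72; 0.62 and not called without Ptpn2-null vehicle replicate 2, edgeR adjusted p = 0.066). The 7 included Trim63 (-0.57), Trim24 (-0.45) and Trim37 (-0.42). Each value also holds the genotype difference with vehicle, which was called for none of these 11 members. For IFNg+TNFa the count was 5 and 5 (25.6%, against 26.3%, 11% larger and 15.3% smaller). For IFNb+IFNg it was 3 and 6 (23.1%, against 15.4%, 6.69% larger and 8.74% smaller), and 4 in all without Ptpn2-null vehicle replicate 2 or without Ptpn2-null IFNb+IFNg replicate 2. For IFNb, TNFa and IFNb+TNFa 0 members were called by edgeR or DESeq2, where 0.512%, 0.0341% and 0.913% of all genes were, and 5, 1 and 4 members had an unadjusted p under 0.05.

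**Figure D4:**
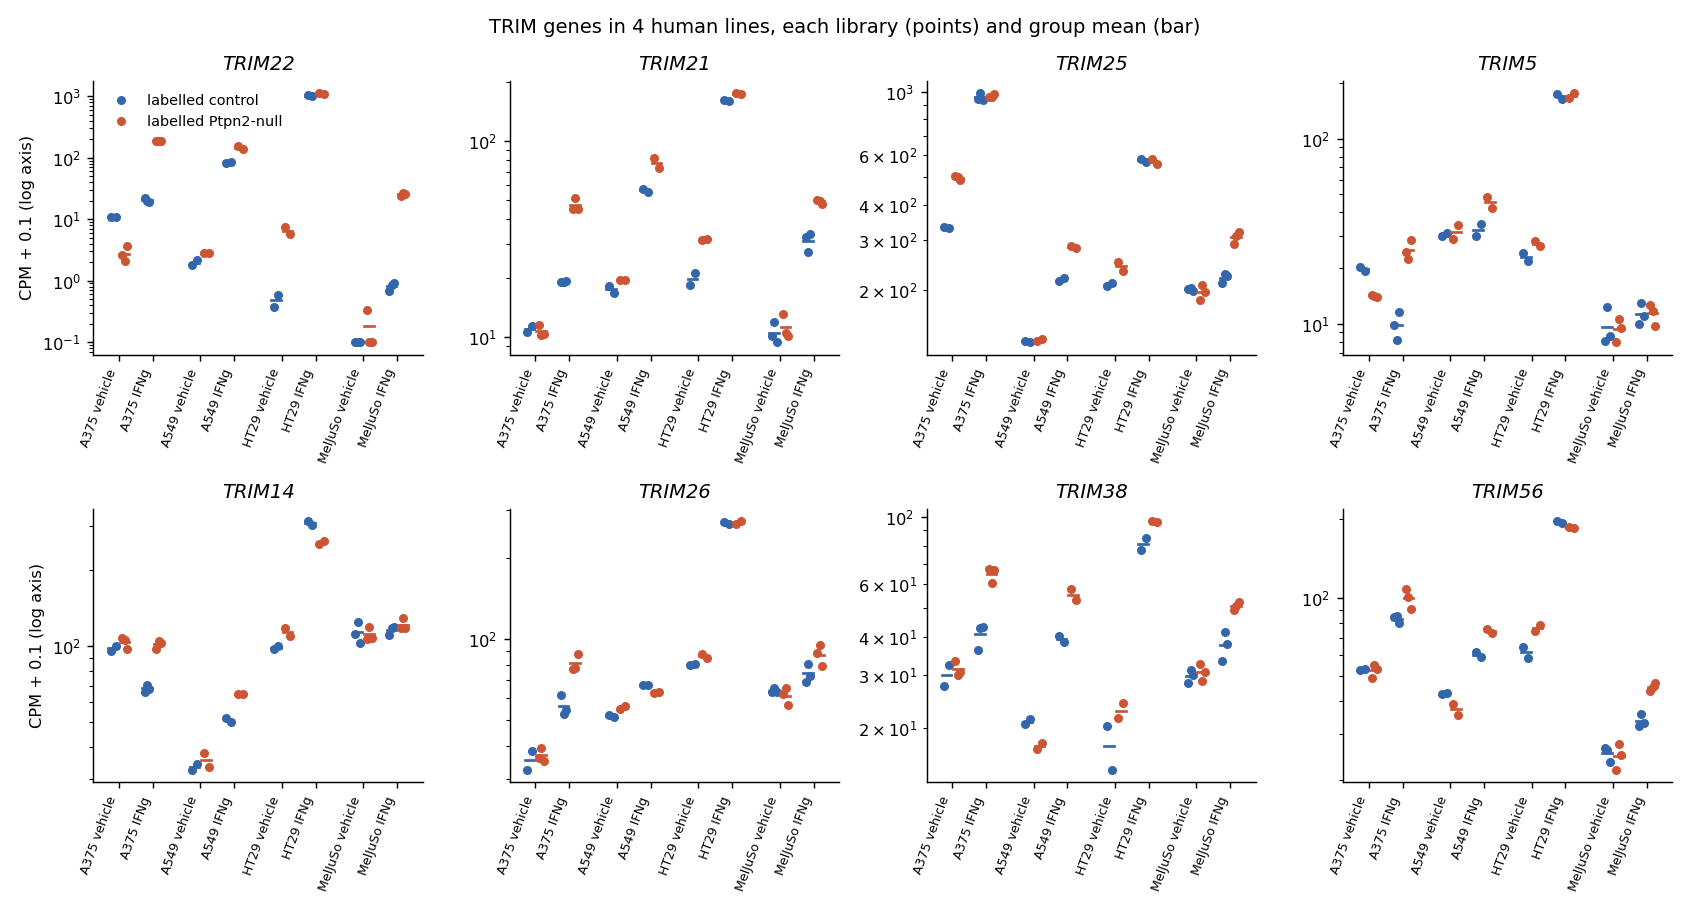
Scaled CPM plus 0.1 on a log axis for 8 interferon-linked TRIM genes in the human lines, each point a library and each bar a group mean, by the genotype on the label. TRIM22 in HT29 goes from under 1 CPM in the control vehicle libraries to over 1000 CPM with IFNg, while MelJuSo control libraries with IFNg stay under 1 CPM.

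In the human lines TRIM22, an interferon-induced gene next to TRIM5 with antiviral activity, took very different levels. HT29 control cells went from 0.266 and 0.485 CPM to 1047.9 and 1007.3 CPM with IFNg, a log2 rise of 11.34 (SE 0.11, edgeR adjusted p = 1.8e-63). Those vehicle libraries held only 2 and 4 counts of TRIM22, so this SE understates the error of the rise. TRIM22, under 1 CPM there, became an HT29 member only through other groups, so a rise with IFNg is built into its membership. A549 control cells went from 1.71 and 2.03 CPM to 81.2 and 83.6 CPM, a rise of 5.45 (SE 0.16, edgeR adjusted p = 1.1e-257). The A549 control vehicle libraries held 11 and 14 counts of TRIM22, so that SE is too small as well. MelJuSo control cells went from 0 in all 3 libraries to 0.581, 0.747 and 0.815 CPM, at least 5.462-fold higher. The A375 libraries labelled control had 10.6 and 10.8 CPM with vehicle and 21.6, 19.8 and 18.7 CPM with IFNg, a rise of 0.92 (SE 0.14, edgeR adjusted p = 9.4e-10). That A375 value rests on the vehicle libraries whose PTPN2 goes against their labels, as do all A375 values set against vehicle below. With the vehicle groups exchanged, an alternative added after seeing the data, the rise was 2.91 (edgeR adjusted p = 5.3e-42). Those labelled Ptpn2-null had 2.51, 1.96 and 3.51 CPM with vehicle.

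TRIM21 rose in every line, by 3.02 in HT29, 1.68 in A549, 1.57 in MelJuSo and 0.81 in the A375 libraries labelled control (log2). HT29 went from 18.3 and 21.3 CPM to 163.0 and 160.1 CPM, the highest level of the 4 lines. TRIM25 rose by 1.45 in HT29, 0.72 in A549 and 0.14 in MelJuSo. In A375 it rose by 1.52 as labelled and by 0.94 with the vehicle groups exchanged, so its place beside HT29 depends on those labels. The MelJuSo rise of TRIM25, and that of TRIM26 (0.22), were lost in DESeq2 and without control IFNg replicate 2 (0.11, edgeR adjusted p = 0.13, and 0.14, edgeR adjusted p = 0.2). TRIM56 rose by 1.66 in HT29, 0.65 in A375, 0.50 in A549 and 0.40 in MelJuSo, and TRIM38, a regulator of innate immune signalling, by 2.23, 0.44, 0.91 and 0.35 in that order. The MelJuSo rise of TRIM38 was also lost without control IFNg replicate 2 (0.26, edgeR adjusted p = 0.05).

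Other members moved in some lines. TRIM5, the retroviral restriction factor, rose by 2.89 in HT29, from 23.9 and 21.7 CPM to 174.6 and 164.0 CPM, and was not called in A549 (29.8 and 30.8 to 29.9 and 34.3 CPM) or MelJuSo. In A375 it went from 20.2 and 19.3 CPM in the vehicle libraries labelled control to 9.8, 8.07 and 11.5 CPM and fell by 1.04, and by 0.54 with the vehicle groups exchanged. TRIM14, an adaptor of the mitochondrial antiviral pathway, rose by 1.64 in HT29 and 0.61 in A549, fell by 0.53 in A375 and was not called in MelJuSo. TRIM31, a ligase of epithelial cells that acts on that same pathway, rose in A549 from 2.48 and 3.18 CPM to 47.1 and 51.2 CPM (log2 4.10, SE 0.17, edgeR adjusted p = 1.2e-130) and in HT29 from 203.6 and 239.7 CPM to 1472.0 and 1508.4 CPM (2.75, SE 0.05, edgeR adjusted p = 1e-24). It was under the 1 CPM threshold in both melanoma lines.

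Of the 44 HT29 members 20 were higher and 13 lower with IFNg (75.0% called, against 59.4% of the 12555 genes tested, 30.8% higher and 28.7% lower), with 12 of 16 interferon-linked members higher and 1 lower. TRIM22, TRIM36, TRIM40, TRIM6 and TRIM69, under 1 CPM with vehicle, became members only through other groups, and among the other 39 members 15 were higher and 13 lower (71.8%). TRIM40, a gut gene, went from 0 in both vehicle libraries to 8.71 and 8.7 CPM, at least 45.79-fold higher. TRIM15 rose by 2.82, from 9.43 and 10.3 CPM to 68.4 and 71.6 CPM, TRIM69 by 3.06, TRIM6 by 2.48 and TRIM10 by 1.64. Falls included TRIM7 by 1.74, TRIM2 by 1.37, TRIM66 by 0.94 and TRIM59 by 0.90. In A549 17 members were higher and 4 lower (50%, against 47.6%, 23.9% higher and 23.7% lower), 10 of the 17 interferon-linked.

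The melanoma lines differed in breadth. In MelJuSo 8 members were higher and 1 lower (22.0%, against 11.5%, 6.32% higher and 5.18% lower), 6 of them interferon-linked, and 5 members were called without control IFNg replicate 2. TRIM22, a member there only through Ptpn2-null IFNg libraries, is 1 of the 8. In A375, with the vehicle libraries as labelled, 19 were higher and 13 lower (80.0%, against 66%, 33% each way). With the vehicle groups exchanged it was 17 and 13. There TRIM36 rose by 1.27 (0.55 exchanged) and TRIM59 fell by 1.10 (1.53 exchanged), and the lowest value, -2.76 for TRIM6, was lost without control vehicle replicate 3 (-1.69, edgeR adjusted p = 0.14). In 1 fit of A549, HT29 and MelJuSo, the IFNg response of control cells differed between lines for 33 of 49 members, where 54.6% of the 14302 genes tested differed. The smallest adjusted p-values in that edgeR fit were 3e-71 for TRIM25, 5.2e-67 for TRIM5 and 8.5e-67 for TRIM14, and TRIM23, TRIM27 and TRIM35 were not called. TRIM22 was also called there (edgeR adjusted p = 1.8e-21), with MelJuSo vehicle libraries at 0.

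**Figure D5:**
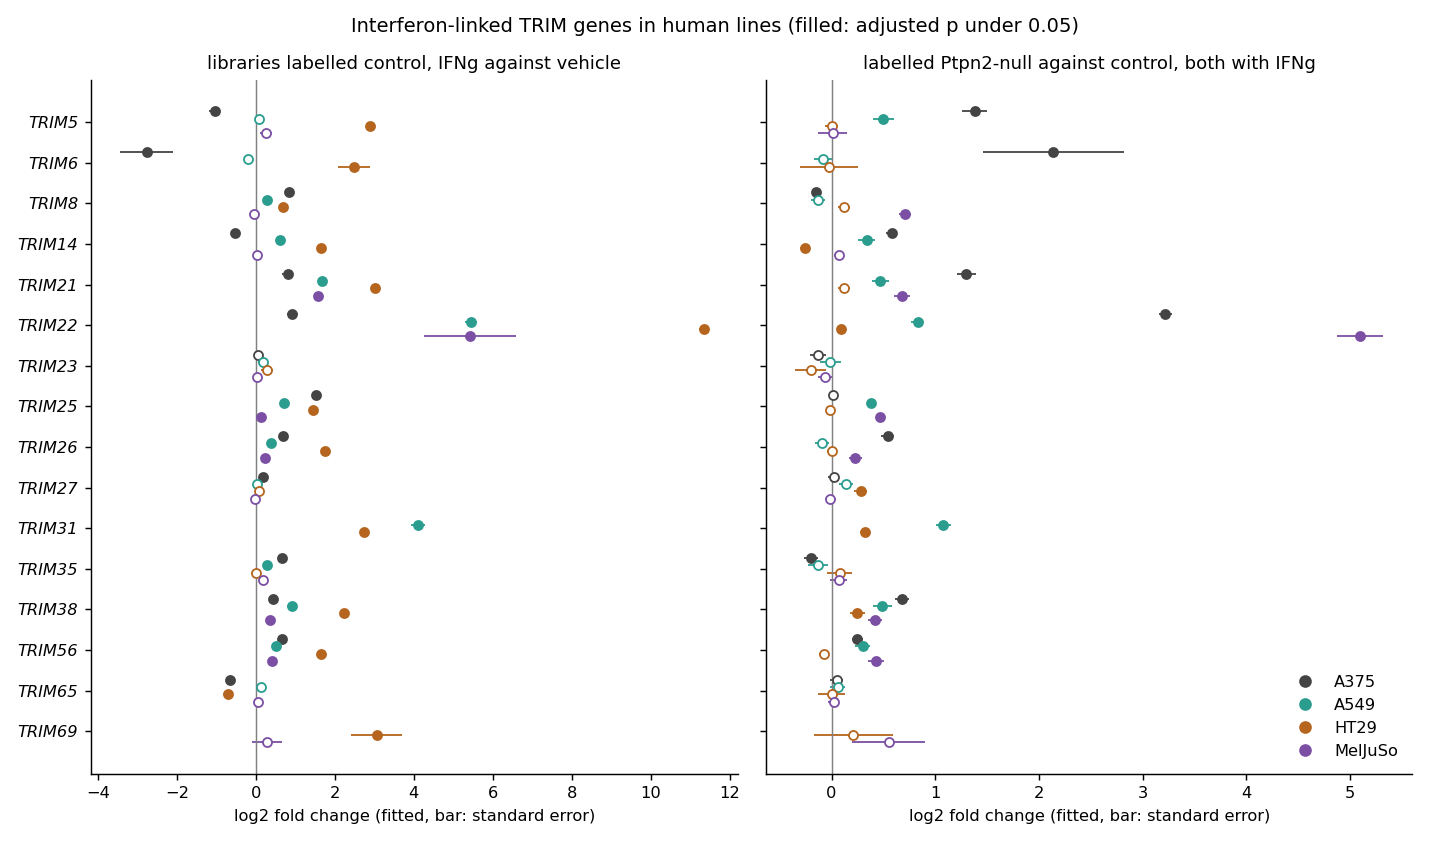
Fitted log2 fold changes of 16 interferon-linked TRIM genes in the human lines, for IFNg against vehicle in the libraries labelled control (left) and for Ptpn2-null against control with IFNg (right), filled where the adjusted p is under 0.05. Bars show the SE derived from the test's F value, which is too small where a group holds few counts. TRIM22 lies farthest to the right in both panels, in HT29 on the left (11.34) and in MelJuSo on the right (5.10), and the left-hand A375 points rest on vehicle libraries whose PTPN2 goes against the labels.

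With IFNg, Ptpn2-null cells of 3 human lines held more TRIM22 than control cells. MelJuSo had 23.5, 26.8 and 25.5 CPM against 0.581, 0.747 and 0.815 CPM, higher by 5.10 on the log2 scale (SE 0.22, edgeR adjusted p = 5.5e-41). TRIM22 became a MelJuSo member only through these Ptpn2-null libraries, so a rise there is built into its membership. The MelJuSo control IFNg libraries held only 4, 6 and 6 counts of TRIM22, so the SE given for MelJuSo is too small. A375 had 190.1, 184.2 and 188.8 CPM against 21.6, 19.8 and 18.7 CPM, higher by 3.22 (SE 0.06, edgeR adjusted p = 5.9e-114). A549 had 153.3 and 138.9 CPM against 81.2 and 83.6 CPM, higher by 0.83 (SE 0.06, edgeR adjusted p = 5.2e-40). None of these groups overlapped. In HT29 the values were 1110.5 and 1083.9 CPM against 1047.9 and 1007.3 CPM, a difference of 0.09 (edgeR adjusted p = 0.028) that was lost without control IFNg replicate 2 (0.06, edgeR adjusted p = 0.31) or without Ptpn2-null IFNg replicate 1 (0.08, edgeR adjusted p = 0.11).

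HT29 differed between genotypes already with vehicle. TRIM22 was at 7.23 and 5.54 CPM in Ptpn2-null cells against 0.266 and 0.485 CPM, higher by 4.03 (SE 0.36, edgeR adjusted p = 1.2e-13), and TRIM21 at 31.4 and 31.5 CPM against 18.3 and 21.3 CPM, higher by 0.66 (SE 0.10, edgeR adjusted p = 1.3e-06). In all, 10 members were higher and 3 lower (29.5%, against 21.1%, 12.5% higher and 8.66% lower), 7 of the 10 interferon-linked, with 8 called in all without control vehicle replicate 1 and 7 by DESeq2. Here TRIM38 (0.39) was lost without control vehicle replicate 2 (0.16, edgeR adjusted p = 0.54). With vehicle 0 members were called in A549 and in MelJuSo by edgeR or DESeq2 (2.95% and 1.64% of all genes), with 6 in each at an unadjusted p under 0.05. In A375 9 were called between the vehicle libraries as labelled (22.5%, against 21.1%, 12.4% higher and 8.73% lower), 7 higher and 2 lower, among them TRIM22 at -2.0 (SE 0.22, edgeR adjusted p = 2.1e-15) and TRIM25 at 0.58. If the vehicle labels were exchanged, the sign of each of these values would turn.

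Other interferon-linked members followed in the melanoma and lung lines with IFNg. In A375 TRIM5 was at 24.2, 22.2 and 28.3 CPM against 9.8, 8.07 and 11.5 CPM, higher by 1.38 (SE 0.12, edgeR adjusted p = 6e-22), and TRIM21 at 45.2, 51.6 and 45.2 CPM against 19.1, 19.1 and 19.2 CPM, higher by 1.30 (SE 0.09, edgeR adjusted p = 2e-31). TRIM21 was also higher in MelJuSo, by 0.68, and in A549, by 0.47, and was not called in HT29. In A549 TRIM31 was at 108.7 and 99.2 CPM against 47.1 and 51.2 CPM, higher by 1.08 (SE 0.07, edgeR adjusted p = 4.1e-45). TRIM25 was higher in MelJuSo by 0.47 and in A549 by 0.38 and was not called in A375, where both genotypes stood at 938.8 to 985.9 CPM with IFNg. TRIM8 went in opposite directions in the melanoma lines, at 0.71 in MelJuSo (81.0, 85.8 and 80.7 against 52.5, 53.3 and 45.4 CPM) and -0.15 in A375; the difference was not tested.

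With IFNg the counts were 15 higher and 10 lower in A375 (62.5%, against 50.8%, 25.8% higher and 25% lower), 10 and 4 in A549 (33.3%, against 24.3%, 13% higher and 11.3% lower), 12 and 5 in MelJuSo (41.5%, against 51.2%, 25.5% higher and 25.7% lower) and 13 and 3 in HT29 (36.4%, against 41.9%, 21.3% higher and 20.5% lower). The interferon-linked members made up 8, 8, 7 and 4 of those higher in A375, A549, MelJuSo and HT29 and 2, 0, 0 and 1 of those lower. TRIM22, a MelJuSo member only through its Ptpn2-null IFNg libraries, is 1 of the 12 and of the 7 in MelJuSo. In HT29 the largest differences belonged to other members, TRIM15 (123.3 and 120.7 against 68.4 and 71.6 CPM, log2 0.80, SE 0.07, edgeR adjusted p = 3.2e-15), TRIM62 (0.75) and TRIM47 (0.67). TRIM40 (0.69) was no longer called with DESeq2. TRIM28 was lower in Ptpn2-null cells with IFNg in HT29 (-0.33), A375 (-0.25), A549 (-0.14) and B16 (-0.22) and was not called in MelJuSo. In HT29 TRIM28 was already lower with vehicle (-0.20), and its IFNg response was not called as different between genotypes. MelJuSo showed its lowest values for TRIM63 (-1.13) and TRIM59 (-0.66), the human namesakes of B16 genes that also stood lower. The change of the IFNg response with genotype was positive for 12 and negative for 10 members in A375 (55.0%, against 47.1%, 23.1% and 24%), 4 and 2 in A549 (14.3%, against 11.3%, 6.36% and 4.92%), 10 and 5 in MelJuSo (36.6%, against 35.5%, 16.6% and 18.8%) and 3 and 6 in HT29 (20.5%, against 19.1%, 7.37% and 11.8%). DESeq2 called 5 in HT29. With the vehicle groups exchanged A375 had 11 and 2.

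Partners of TRIM proteins are read against the shares of all genes given above for each comparison. Pml, the gene also named Trim19, rose in all 6 cytokine arms of B16 control cells, by 1.44 with IFNb, 2.15 with IFNg and 0.26 with TNFa, and stood 0.68 higher in Ptpn2-null cells with IFNg. PML was higher with IFNg in HT29 (3.61), A549 (0.88) and MelJuSo (0.68) and was not called in A375. Of 16 genes of RNA sensing and its adaptors 8 rose and 0 fell with IFNb in B16, 10 and 3 with IFNg, 7 and 5 with TNFa, and 12 and 2 with IFNg+TNFa, where 30.5%, 37.9%, 47.7% and 69.3% of all genes were called. Among them, Ddx58, which encodes the TRIM25 target RIG-I, rose by 5.61 with IFNb and 5.73 with IFNg, while Mavs fell by 0.26 with IFNg. In the human control libraries with IFNg the counts in that list were 12 higher and 1 lower in HT29, 7 and 3 in A549, 6 and 4 in A375, and 4 and 0 in MelJuSo, against 59.4%, 47.6%, 66% and 11.5% of all genes called.

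Of 13 ubiquitin-conjugating enzymes, which hand ubiquitin to RING ligases, 2 rose and 0 fell in B16 with IFNg, a smaller share than the 37.9% of all genes called. They were Ube2l6, the ISG15-conjugating enzyme, at 6.15, and Ube2d3. UBE2L6 rose in all 4 human lines, from 1.88 in A375 to 7.65 in HT29. Of 13 partners of Trim28 in chromatin silencing 2 rose and 5 fell with IFNg and 1 rose and 6 fell with IFNg+TNFa in B16, where 37.9% and 69.3% of all genes were called. With IFNg+TNFa Cbx5, which encodes heterochromatin protein HP1 alpha, fell by 0.92 and Rbbp4 by 0.91. In the human control libraries with IFNg 8 fell in A375 and HT29, 7 in A549 and 0 in MelJuSo, with 3, 1, 1 and 1 rising. The shares of all genes called lower there were 33%, 28.7%, 23.7% and 5.18%. CBX5 fell by 0.87 in HT29 and by 0.73 in A549.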

How the data were processed

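The deposited values are gene counts: per the labels' protocols, directional mRNA libraries were read as 37-base pairs, and per the submitters' processing notes the authors used bcl2fastq 2.17.1.14, Trimmomatic 0.33, Bowtie2 2.2.4, HTSeq 0.6.1p1 and DESeq2 on mm10 and hg19. Neither the counting's strand setting nor its treatment of multi-mapped reads is given in these sources, which matters for the close copies and overlapping genes named above.

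Each line was fitted on its own with edgeR 4.0.16 (R 4.3.3): genes kept by filterByExpr over the groups, TMM scaling, robust quasi-likelihood tests with all groups of the line, and Benjamini-Hochberg adjustment over all genes tested, 11726 to 13410 per line. A gene was called at an adjusted p under 0.05. Every member passed the filter. Values shown are TMM-scaled CPM, and membership used unscaled CPM. A fold against a group with 3 counts or fewer in all is a bound or a counting ratio with a 95% exact interval, for counting error only. Library totals ran from 3498860 to 6432517 (B16), 5323668 to 7951961 (A375), 6096437 to 8253298 (A549), 6848609 to 9605776 (HT29) and 4191317 to 9216731 (MelJuSo). Replicate pairs differed by more than counting noise (chi-square per degree of freedom 1.15 to 6.62), so none was treated as a repeat. Alternatives were DESeq2 1.42.0, its size factors, no filter, a replicate block, only the compared groups, each library left out and, added after seeing the data, the libraries that stood apart left out, the length trend removed and the A375 vehicle groups exchanged. Member counts under these alternatives are given without the share of all genes called there, so they cannot be set against it. The fit was tested on simulated data.

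The members and lists were chosen with earlier results of these data known. Named are Ptpn2, the interferon-linked members, up to 5 called members per direction and comparison with the largest changes and a mean log2 CPM of at least 1, the highest, lowest and threshold members, up to 4 called genes per partner list, and Irf1. A result for 1 further gene of that rule is not reported here. Any other member named was picked after its values were seen. Mouse positions are from GENCODE M21 on GRCm38 and promoters from RefSeq, matched by symbol for 30 of 39 members. Human positions were not used here.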

Additional observations from a re-analysis of the deposited data

Results flagged for a closer look

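Interferon-linked members whose cytokine response differed between genotypes by edgeR's interaction test are listed with the log2 difference, Ptpn2-null response minus control response. In B16 with IFNg these were Trim30a (1.74), Trim21 (0.90) and Trim25 (0.70). With IFNb+IFNg they were Trim30a (1.04), Trim21 (0.93) and Trim27 (-0.29), and with IFNg+TNFa Trim21 (1.12), Trim30a (1.07) and Trim26 (0.26). Each value also holds the genotype difference with vehicle, which rests on few counts for Trim30a and Trim21 and was not called. Compared directly, Ptpn2-null cells stood above control cells by less: Trim30a by 1.15 with IFNg and 0.45 with IFNb+IFNg, and Trim21 by 0.50 with IFNb+IFNg and 0.69 with IFNg+TNFa. For Trim25 with IFNg it was 0.73.

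Members with a group at or under 3 counts are left out, since a fitted difference depends on the prior count there. They include Trim30d, Trim12a and Trim34a in B16, TRIM69 in HT29 and TRIM22 in MelJuSo, so their absence says nothing of their response.

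In A375, where the vehicle libraries go against their labels in PTPN2, they were TRIM22 (5.21), TRIM6 (2.11), TRIM5 (1.88), TRIM21 (1.34), TRIM38 (0.61), TRIM14 (0.50), TRIM26 (0.47), TRIM56 (0.26), TRIM8 (-0.38), TRIM35 (-0.50) and TRIM25 (-0.57). With the vehicle groups exchanged, TRIM25 turned to 0.60, TRIM8 to 0.07 and TRIM35 to 0.09, TRIM22 stood at 1.22 and TRIM5 at 0.88, and TRIM8 and TRIM35 were no longer called. In A549 they were TRIM38 (0.76), TRIM56 (0.50), TRIM5 (0.46) and TRIM25 (0.37). MelJuSo showed TRIM8 (0.78), TRIM21 (0.62), TRIM25 (0.50), TRIM56 (0.45), TRIM38 (0.39) and TRIM26 (0.31). HT29 showed mostly negative values, for TRIM22 (-3.93), TRIM21 (-0.55), TRIM14 (-0.46), TRIM56 (-0.38) and TRIM25 (-0.23), beside TRIM27 (0.29). There the genotypes already differed with vehicle, TRIM22 by 4.03 and TRIM21 by 0.66. The response of control cells to IFNg differed between A549, HT29 and MelJuSo for 33 of 49 members, where 54.6% of the 14302 genes tested differed.

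Some of these calls were lost when 1 library was left out. In B16 this held for Trim30a with IFNb+IFNg (0.91 without control vehicle replicate 3), Trim27 (-0.22 without Ptpn2-null IFNb+IFNg replicate 2) and Trim26 (0.19 without control vehicle replicate 2). In A375 it held for TRIM6 (1.04 without control vehicle replicate 3) and TRIM56 (0.20 without Ptpn2-null IFNg replicate 1), and in A549 for TRIM5 (0.33 without Ptpn2-null vehicle replicate 1). In HT29 it held for TRIM25 (-0.18 without Ptpn2-null vehicle replicate 1) and TRIM27 (0.20 without Ptpn2-null IFNg replicate 1), and in MelJuSo for TRIM26 (0.24 without Ptpn2-null vehicle replicate 3).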

How the results depend on the processing

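Counts of called members moved by more than 1.5 times under these settings. The shares of all genes called under them are not given, so whether a move was particular to TRIM members is not shown. With only the compared groups in the fit, B16 Ptpn2-null against control gave 3 with vehicle (1 in the report) and 9 with IFNb+IFNg (17), the B16 interaction with IFNb+IFNg gave 4 (9), IFNb+TNFa against IFNb gave 5 (3), and MelJuSo vehicle gave 1 (0). Without the libraries that stood apart, an alternative chosen after seeing the data, IFNb+TNFa against IFNb gave 5 and the B16 vehicle comparison 3. With no filter the B16 TNFa genotype comparison gave 1 (0) and the interaction with IFNb+IFNg 5. DESeq2 gave 5 for that interaction, 7 for HT29 Ptpn2-null against control with vehicle (13) and 5 for the HT29 interaction (9).

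With 1 library left out, counts ranged from 1 to 3 for IFNb+TNFa against IFNb, 0 to 1 for B16 genotype with vehicle, 7 to 11 for the B16 interaction with IFNg, 4 to 10 for that with IFNb+IFNg, 8 to 11 for HT29 genotype with vehicle and 5 to 10 for MelJuSo control IFNg. Removing the trend with transcript length, also chosen after seeing the data, turned Trim33 to 0.11 with TNFa, 0.07 with IFNb+IFNg and 0.09 for IFNb+IFNg against IFNg, Trim44 to 0.07 with IFNb+IFNg, and Trim63 to 0.0 for IFNb+IFNg against IFNg. The cause was not tested. Exchanging the A375 vehicle groups, likewise added, gave 13 called members for the A375 interaction (22) and turned TRIM11 to 0.02, TRIM24 to 0.14, TRIM25 to 0.60, TRIM32 to -0.03, TRIM35 to 0.09, TRIM36 to 0.23, TRIM4 to -0.07, TRIM41 to 0.05 and TRIM8 to 0.07 there, and TRIM11 to -0.09 for IFNg against vehicle.

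Same-numbered replicates showed no steady shared deviation (correlations from -0.314 to 0.383, in no comparison all over 0.1), and the main fits did not pair them. Deviations from means of 2 or 3 libraries are a weak check, which cannot exclude pairing. A replicate block changed 1 count of called members by more than 1.5 times, MelJuSo Ptpn2-null against control with vehicle, to 1 from 0. For single named genes, leaving out a library kept 2943 of the calls and lost 436, and the other settings, without that exchange, kept 3008, lost 227 and reversed 5. The 2 or 3 libraries per group limit what small changes and members near 1 CPM can show.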
